A study of Xenopus laevis with 18 samples.

Results

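The transcripts described here were rare in the egg and cleaving embryo of the African clawed frog Xenopus laevis and abundant in its tailbud embryo. They were chosen from an RNA sequencing series of whole embryos, J strain, with 18 libraries, each from a different stage of normal development as numbered by Nieuwkoop and Faber (NF). Embryos were snap frozen, and libraries were made from total RNA after removal of ribosomal RNA, so a transcript does not need a long poly(A) tail to be counted. A row of the deposited table is treated here as 1 reference transcript. Its level is given in TPM, an abundance relative to the total of all transcripts, after leaving out the ERCC spike-ins (synthetic RNAs added as a yardstick) and scaling the Xenopus rows of each library to 1000000. Members had a mean of at least 1 and under 10 TPM over the 5 pre-midblastula libraries (NF 0, 2, 6, 6.5 and 7) and a mean of at least 100 TPM over the 4 tailbud libraries (NF 23, 26, 30 and 33). This rule found 34 of 30993 Xenopus rows. They were 0.788% of the 4316 rows with such a low maternal level and 2.61% of the 1305 rows with such a tailbud level.

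All embryos were of the same strain, the labels name no treatment other than freezing, and the groups differ in stage. The other libraries, which the rule did not use, were NF 8, 8.5 and 9 (blastula, n = 3), NF 10 and 12 (gastrula, n = 2) and NF 14, 16, 18 and 20 (neurula, n = 4). The labels name no separate sample of any stage, so every SD and every test rests on the spread between neighbouring stages of a window, which holds real change as well as technical spread. The labels give neither the number of embryos behind a library nor their parents.

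The egg of a frog is loaded with messenger RNA made by the mother. The early cleavages run on this store while the embryo's own genome is nearly silent. At the midblastula transition the genome is switched on broadly, and during gastrulation the maternal store is cleared while the germ layers form. The neurula then closes the neural tube, and in the tailbud embryo muscle, blood, sense organs and other differentiated tissues appear. A transcript can belong to both phases, with a small maternal store followed by zygotic transcription. Its time course then shows when its total rises above the maternal level. Old and new copies are counted together, so the course does not show when one replaces the other. In libraries of whole embryos, more cells with a transcript and more RNA of it per cell cannot be told apart.

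None of the row names matched the RefSeq gene table (0 matches), so the files pair no member with a gene. Members are therefore called by rank, where rank 1 has the largest ratio of tailbud to pre-midblastula mean and rank 34 the smallest, and only 3 row names are printed. The labelled tissue could not be checked against marker genes for the same reason. Xenopus laevis has an allotetraploid genome with many pairs of near-identical gene copies, and how reads were divided between such copies was not stated in the labels, so the level of a member may include or miss reads of its partner.

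The depth of the libraries is unknown, because TPM keeps no depth, so counting error cannot be stated. The deposited columns of NF 0, 2, 6, 8.5, 9, 10, 18, 20 and 23 summed to between 1.48% and 2.72% over 1000000, and the other 9 summed to 1000000 within rounding. The headers of NF 0 to NF 8 carry a suffix of unstated meaning. Spike-ins took 37.7% to 45.9% of the deposited total up to NF 12 and 19.2% to 25.8% in the tailbud libraries.

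The members are described first by the levels that chose them, without a test. The pre-midblastula means ran from 1.12 to 9.20 TPM with a median of 4.07 TPM, and the tailbud means from 102 to 4071 TPM with a median of 189 TPM. The rise was 59.0-fold for the median member, 1607-fold for rank 1 and 11.7-fold for rank 34. All 4 tailbud libraries stood at 100 TPM or more for 19 members, while 15 members had at least 1 tailbud library under 100 TPM. At the lower maternal edge, the nearest rows inside had means of 1.12 and 1.14 TPM and the nearest outside 0.988 and 0.958 TPM. At the upper maternal edge these were 9.20 and 9.09 TPM inside and 10.5 and 10.6 TPM outside. At the tailbud edge they were 102 and 104 TPM inside and 99.96 and 97.1 TPM outside.

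The low maternal level was seen in every pre-midblastula library for most members. In 30 of the 34 members no pre-midblastula library was listed at 0. The exceptions were ranks 3, 4, 15 and 18. Rank 4 was listed at 0 in 4 of these 5 libraries and stood at 5.62 TPM in NF 2 alone. It was again at 0 at stage 16, at 88.7 TPM at stage 18 and at 6.39 TPM at stage 20, before 521 TPM at stage 23. Its place among the members thus rests on NF 2, and without that library it was no longer one. Members near an edge of the rule changed as well when 1 library was left out. Rank 15 was not a member without NF 23, and rank 16 not without NF 0 or without NF 7. The same held for rank 3 without NF 6, rank 34 without NF 6 or NF 23, rank 27 without NF 33 and rank 29 without NF 30 or NF 33. Rank 18 stood at 14.9 TPM at stage 0, at 0 at stage 2 and NF 6, and at 6.80 TPM at stage 6.5, so its maternal level was uneven too.

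**Figure D1:**
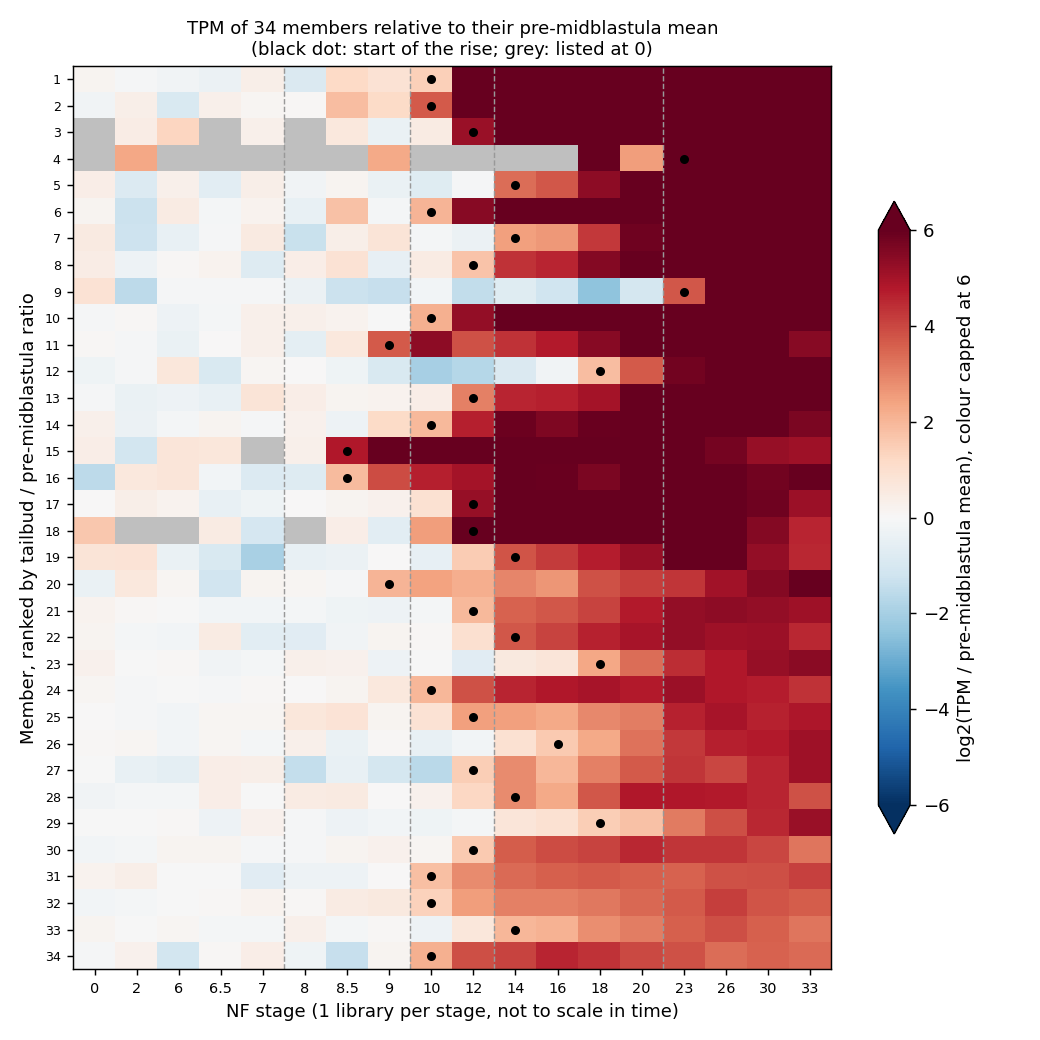
Level of the 34 members (rows, by rank) in the 18 libraries (columns, by NF stage), as log2 of TPM over the member's own pre-midblastula mean. Red is higher, blue lower, grey a value listed at 0, dashed lines part the 5 windows, and a black dot marks the start of the rise, which for 24 members lay at stage 10, 12 or 14.

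Together the members grew from a trace of the transcript pool to over 1% of it. Their summed share of all Xenopus TPM was 0.0147% ± 0.00077 before the midblastula (SD, n = 5). It was 0.0136% at stage 8, 0.0229% at stage 8.5 and 0.0567% at stage 9. The share reached 0.145% at stage 10 and 0.343% at stage 12, averaged 0.844% ± 0.181 over the neurula libraries (SD, n = 4) and rose to 1.51% ± 0.205 over the tailbud ones (SD, n = 4). Ranks 1 and 2 made up a large part of this sum. Without them the share was 0.513% at stage 20 and 0.769% at stage 33.

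The rise started at stage 10 to NF 14 for most members. Its start was taken as the first stage from NF 8 on from which every later library stood at 2 times the highest pre-midblastula library or more. No member had started at stage 8. The start lay at stage 8.5 for 2 members, NF 9 for 2, NF 10 for 9, NF 12 for 9, NF 14 for 6, NF 16 for 1, NF 18 for 3 and NF 23 for 2. All 34 members met this measure, as the rule nearly forces, against 19.3% of all 4316 rows with a low maternal level. The start measure has no test, because it leans on the pre-midblastula libraries that chose the members, and each stage is 1 library. With 4 times in place of 2 times, 4 members started by NF 10 in place of 13.

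**Figure D2:**
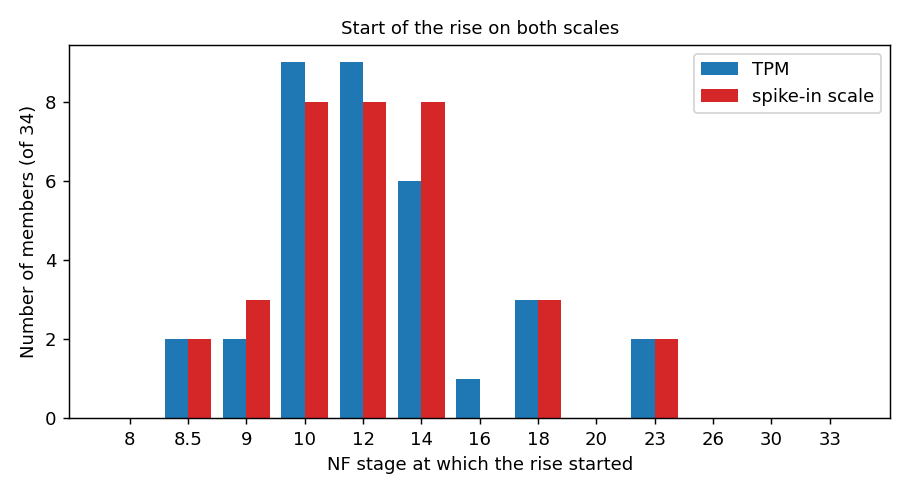
Number of the 34 members (vertical axis) by the NF stage at which their rise started (horizontal axis), in TPM (blue) and on the spike-in scale (red). Both scales have most starts at stage 10, 12 and 14, with 24 members each.

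The typical member left its maternal level at gastrulation. The median ratio to the pre-midblastula mean was 0.96 at stage 8, 1.12 at stage 8.5 and 1.09 at stage 9. It was 1.41 at stage 10, 5.02 at stage 12, 12.97 at stage 14 and 29.2 at stage 20. It was highest at stage 26, at 68.8, and was 39.2 at stage 33. The other 4282 rows with a low maternal level moved the other way, with a median ratio of 0.78 at stage 10, 0.52 at stage 12 and 0.48 at stage 16, and 0.88 at stage 33. Stages up to NF 20 were not used by the rule, but a member had to rise somewhere between both outer windows, so these values place the rise rather than show that there was one.

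**Figure D3:**
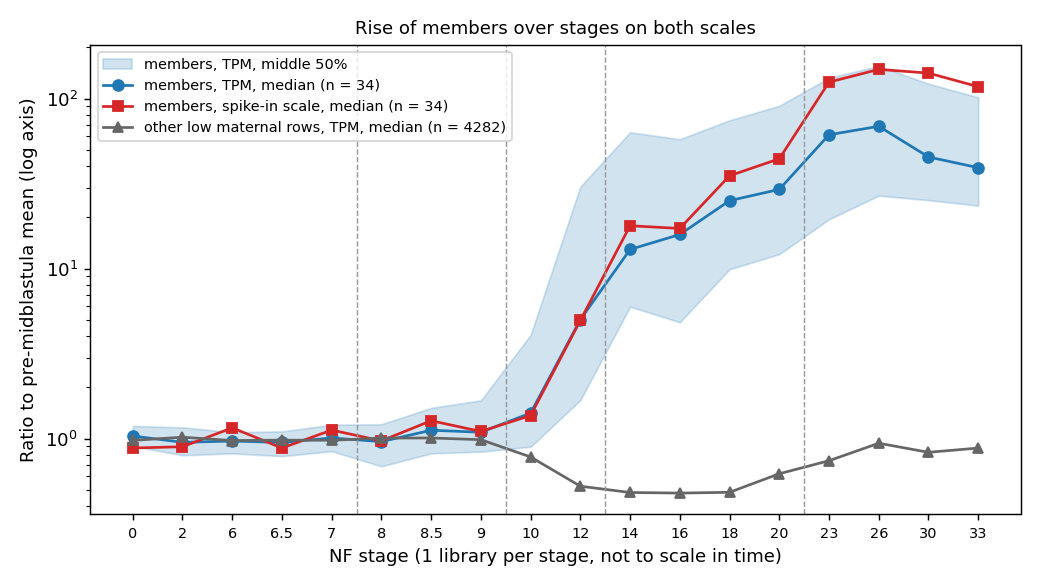
Ratio of each library to the pre-midblastula mean (vertical axis, log scale) over NF stage (horizontal axis), as the median of the 34 members in TPM (blue, with the middle 50% shaded) and on the spike-in scale (red), and the median of the 4282 other rows with a low maternal level (grey). Both member curves lie together up to NF 12, at 5.02 and 4.96, and part afterwards.

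The comparisons between blastula, gastrula and neurula use none of the libraries of the rule to set the levels compared. The spread behind their p-values, however, was taken from all 18 libraries, those of the rule included. The test was limma on log2(TPM + 1), run over the 21670 rows whose mean reached 1 TPM, and all 34 members passed that filter, which their tailbud levels alone ensured. In gastrula against blastula libraries 17 of 34 members were higher and 0 lower (limma, Benjamini-Hochberg adjusted p under 0.05). Over all rows 11.2% were higher and 31.1% lower. At an unadjusted p under 0.05, 19 members were higher and 0 lower, and 10779 of the 21670 rows passed in either direction. The median log2 change was 1.16 over the members and -0.30 over all rows tested. The libraries did not overlap, with gastrula above blastula, for 18 members, against 15.8% of all rows, and the reverse held for 1 member, against 43.7%.

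This count leaned on NF 12. Without NF 12 the members called higher were 8, with 5.04% of all rows, and without NF 10 they were 20, with 16.3%. Fitted on the 9 libraries of NF 8 to NF 20 alone 10 of the 33 members that could be tested were higher, with 7.83% of all rows, and array weights gave 5 members and 3.34%. The shares over all rows thus moved with the members' counts. Within the columns over 1000000, NF 10 against NF 8.5 and 9, 11 members were at least 2-fold higher, against 6.43% of all rows, with a member median log2 change of 0.26. Within the columns at 1000000, NF 12 against NF 8, it was 24 members, against 15.4%, with a median of 2.12. These 2 values also compare different stages, so the kind of column and the step from NF 10 to NF 12 cannot be told apart here. In each of these sets of columns 1 member was at least 2-fold lower. The share of all rows at least 2-fold lower was not counted, so nothing is read from this.

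In neurula against gastrula libraries limma called 27 of 34 members higher and 0 lower (adjusted p under 0.05), against 19.9% and 34.9% of all rows. At an unadjusted p under 0.05 the counts were also 27 and 0, and 13003 of the 21670 rows passed in either direction. The median log2 change was 2.46 over the members and -0.24 over all rows. All neurula libraries lay above both gastrula libraries for 29 members, against 20.6% of all rows, and below both for 0 members, against 33.9%. Array weights gave 11 members higher, with 4.25% of all rows. The scaling shifts all rows. From blastula to gastrula the median log2 change of all rows was -0.38 on the spike-in scale, which divides by the summed spike-ins, and 0.05 with median ratio scaling, which levels the typical row, and from gastrula to neurula it was 0.07 and 0.15. The members' medians stayed well above these, at 1.08 and 1.56 in the first step and 2.84 and 2.92 in the second. Within the columns over 1000000, NF 18 and 20 against NF 10, 31 members were at least 2-fold higher, against 22.3% of all rows, and 1 was at least 2-fold lower. Within the others, NF 14 and 16 against NF 12, 19 were higher, against 9.21%, and 0 lower. The shares of all rows at least 2-fold lower were not counted here either. These sets compare different stages, so the kind of column and the stage cannot be told apart.

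Both steps together divide the members. In 13 members both steps were called higher, in 4 only the step to the gastrula, in 14 only the step to the neurula, and in 3 neither. Over all rows the first step was called higher for 11.2% and the second for 19.9%. The joint shares over all rows were not counted, so this split is not shown to be particular to the members. A step without a call is not shown to be flat. Both comparisons share the gastrula libraries, so a chance low value there would favour the second and hinder the first. A linear trend over the 9 libraries from NF 8 to NF 20, fitted alone, was rising for 31 of 33 members and falling for 0 (limma, adjusted p under 0.05), against 24.4% rising and 49.6% falling of 20415 rows. At an unadjusted p under 0.05 it was rising for 32 and falling for 0, and 15525 of the 20415 rows passed in either direction. A member had to rise somewhere between the outer windows, so rising calls are favoured by the rule itself. These counts, like those of both steps, place the rise and are not evidence that there was one. The median slope was 0.71 log2 units per stage step over the members and -0.12 over all rows. Rank 9 had a mean under 1 TPM in these libraries and was not tested. The members not called were rank 4, with a slope of 0.43 (limma adjusted p = 0.111), and rank 15, with a slope of 0.57 (limma adjusted p = 0.0501).

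The 4 earliest members were ranks 15 and 16, which started at stage 8.5, and ranks 11 and 20, which started at stage 9. These stages lie at or after the midblastula transition. Rank 15 is row XeXenL6RMv10032466m, named after its values were seen. It stood at 2.10, 0.758, 2.62, 2.53 and 0 TPM from NF 0 to NF 7. It was at 1.99 TPM at stage 8, 45.4 TPM at stage 8.5, 249.8 TPM at stage 9 and 858 TPM at stage 10. No other member had its highest level so early. It then stood at 532 TPM at stage 12, at 313, 672, 479.8 and 146 TPM in the neurula libraries, and at 215, 86.4, 59.8 and 54.3 TPM in the tailbud libraries. The gastrula libraries lay above all blastula libraries (log2 change 4.37, SE 1.19, limma adjusted p = 0.00763). The neurula and gastrula libraries overlapped (log2 change -0.95, SE 1.13, limma adjusted p = 0.493). The row was thus far lower at NF 33 than in either gastrula library and still above every pre-midblastula library.

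Rank 16 rose over the same stages and, in TPM, stood at like levels in the neurula and tailbud windows. It stood at 3.08, 13.9, 15.05, 8.04 and 5.05 TPM from NF 0 to NF 7, at 5.35 TPM at stage 8, 33.8 TPM at stage 8.5 and 134 TPM at stage 9. It was at 226 and 290.1 TPM in the gastrula libraries, at 592 ± 137 TPM over the neurula libraries (SD, n = 4) and at 583 ± 69.5 TPM over the tailbud ones (SD, n = 4). On the spike-in scale, which divides by the summed spike-ins, these were 793 ± 266 and 1477 ± 217 (SD, n = 4 each). Ranks 15 and 16 were both first high at stage 8.5, the first library without the header suffix. From NF 8 to NF 8.5 the suffix and the kind of column change together with the stage. Their parts in this step cannot be told apart and were not tested. Both ranks went on rising at stage 9 and NF 10.

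Rank 11 had an early local maximum followed by a second rise. It stood at 0.885 TPM at stage 8, 2.03 TPM at stage 8.5, 17.2 TPM at stage 9 and 55.1 TPM at stage 10. It was down at 18.9 TPM at stage 12, and NF 14 and NF 16, at 27.0 and 35.7 TPM, also lay below NF 10. It was back at 57.4 TPM at stage 18, and stood at 171 TPM at stage 26 and 59.0 TPM at stage 33. Each of these stages is 1 library, so the low from NF 12 to NF 16 has no replicate check. The libraries of this low are of another kind of column than NF 10 and NF 18. The part of the column kind in it was not tested. Rank 20 had a rising trend over NF 8 to NF 20 (slope 0.46 log2 units per stage step, SE 0.0605, limma adjusted p = 0.000243). It went from 4.45 ± 1.84 TPM before the midblastula (SD, n = 5) and 4.20 TPM at stage 8.5 to 18.6 TPM at stage 9. It then stood at 23.7 TPM at stage 10, 19.8 TPM at stage 12 and 284 TPM at stage 33.

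**Figure D4:**
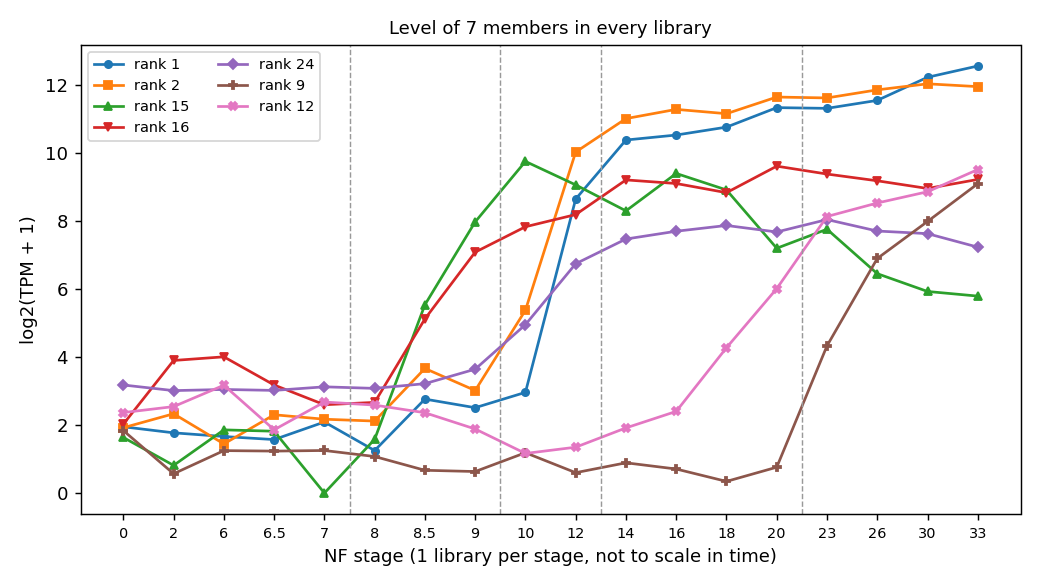
Level of 7 members (log2(TPM + 1), vertical axis) in each of the 18 libraries (NF stage, horizontal axis), with dashed lines between the 5 windows. Ranks 15 and 16 rise from NF 8.5, ranks 1, 2 and 24 from NF 10, rank 12 from NF 18 and rank 9 from NF 23.

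The 9 members that started at stage 10 include both of the most abundant ones. All 9 were called higher in the gastrula and again in the neurula window, against 11.2% and 19.9% of all rows. The start stage was set from the same libraries, so the gastrula calls largely repeat that grouping. Rank 1, row XeXenL6RMv10040845m, stood at 2.86, 2.41, 2.17, 1.97 and 3.26 TPM before the midblastula and at 1.38, 5.78 and 4.69 TPM in the blastula libraries. It was at 6.78 TPM at stage 10 and at 399 TPM at stage 12, the steepest part of its course. The neurula libraries stood at 1328, 1470.2, 1728 and 2570.1 TPM and the tailbud libraries at 2533, 2978, 4771 and 6004 TPM. Its log2 change was 3.63 from blastula to gastrula (SE 0.973, limma adjusted p = 0.00699) and 4.94 from gastrula to neurula (SE 0.923, limma adjusted p = 0.000317). The first of these calls was lost without NF 12, where the log2 change was 0.79, in the fit on NF 8 to NF 20 alone and with array weights.

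Rank 2, row XeXenL6RMv10030459m, followed nearly the same course a little earlier. It stood at 2.79, 4.03, 1.72, 3.93 and 3.502 TPM before the midblastula and at 3.34, 11.7 and 7.08 TPM in the blastula libraries. It was at 40.5 TPM at stage 10 and at 1039.9 TPM at stage 12. The neurula libraries stood at 2055, 2480.3, 2272 and 3189 TPM and the tailbud libraries at 3131, 3692, 4175 and 3943 TPM. None of these windows overlapped with the next, except that NF 20 lay above NF 23 and that 1 blastula library lay within the pre-midblastula range. Its log2 change was 4.77 from blastula to gastrula (SE 0.799, limma adjusted p = 0.000234) and 3.57 from gastrula to neurula (SE 0.758, limma adjusted p = 0.0009), and neither call held with array weights.

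Ranks 10 and 24 also started at NF 10 and in TPM stood at NF 20 at 103% and 99.8% of their tailbud mean. Rank 24 stood between 7.06 and 8.04 TPM before the midblastula, at 7.44, 8.29 and 11.5 TPM in the blastula libraries, and at 29.9 and 106 TPM in the gastrula libraries. Its neurula libraries stood at 204 ± 23.0 TPM (SD, n = 4) and its tailbud libraries at 204 ± 46.4 TPM (SD, n = 4), which on the spike-in scale were 269.8 ± 45.6 and 508 ± 63.6. Rank 10 stood at 1.21 ± 0.197 TPM before the midblastula (SD, n = 5), at 5.39 TPM at stage 10, 46.4 TPM at stage 12 and 104 TPM at stage 14. It was at 197, 201, 202 and 127 TPM in the tailbud libraries. The maternal levels of both members were far apart, 7.43 against 1.21 TPM, and their tailbud libraries overlapped.

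The 15 members that started at stage 12 or NF 14 were mostly called at the step to the neurula. Of these, 14 were called higher in neurula against gastrula libraries and 5 in gastrula against blastula libraries. Over all rows the shares were 19.9% and 11.2%. These members were grouped by a start set from the same libraries, so the counts largely repeat that grouping. Rank 21 had one of the most even maternal levels, at 10.2, 9.37, 8.73, 7.99 and 8.01 TPM before the midblastula. It was still at 8.28 TPM at stage 10 and then stood at 34.6 TPM at stage 12, 101 TPM at stage 14 and 240.3 TPM at stage 20. Its tailbud libraries stood at 339, 367, 344 and 305 TPM. The first 9 libraries, to NF 10, thus lay between 7.27 and 10.2 TPM, and every later one lay above them. Rank 5 had no such rise at stage 12, with 2.11 TPM, and stood at 23.1 TPM at stage 14, 203 TPM at stage 20 and 718 TPM at stage 30.

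The 6 members that started at stage 16 or later were ranks 4, 9, 12, 23, 26 and 29. Rank 9 was the latest with an even course. It lay between 0.482 and 2.57 TPM before the midblastula and between 0.269 and 1.28 TPM in the 9 libraries from NF 8 to NF 20. It then stood at 19.1 TPM at stage 23, 118 TPM at stage 26, 252 TPM at stage 30 and 545 TPM at stage 33. Its SD in the tailbud window, 228 TPM around a mean of 233 TPM (n = 4), comes from libraries that stood higher at each later stage. Rank 12 passed through a low before it rose, from 5.001 ± 1.97 TPM (SD, n = 5) to 1.24 TPM at stage 10 and 1.55 TPM at stage 12. It was at 18.3 TPM at stage 18, 63.4 TPM at stage 20 and 279, 367, 463 and 727 TPM in the tailbud libraries. The gastrula libraries lay below all blastula libraries, without a call (log2 change -1.02, SE 0.80, limma adjusted p = 0.331), and the neurula libraries were higher (log2 change 2.39, SE 0.759, limma adjusted p = 0.0136).

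Members parted again during the tailbud stages. The level at stage 33 was at least 2 times that at stage 23 for 7 members, at most 50% of it for 8 members, and between these for 19. The highest TPM was reached in a tailbud library by 25 members, of which 11 were highest at stage 33. It was reached at stage 20 by 5 members and at stage 10, 14, 16 and 18 by 1 each. A tailbud library was thus highest for 73.5% of members. Among rows with the same tailbud bound this held for 80.4% of those with a maternal mean under 1 TPM. For a maternal mean of 10 to under 100 TPM it was 52.8%. The change from NF 23 to NF 33 was not counted over other rows. Of the 6 members with a late start 5 were higher at stage 33 than at stage 23, and of the 13 with a start by NF 10 it was 4. On the spike-in scale these counts were 5 of 6 and 8 of 13, so the contrast was mostly that of TPM. These are counts in single libraries that the rule used, given as a description.

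Scaled to the spike-ins in place of the Xenopus total, the rise was larger for every member and by nearly the same factor. For this scale the Xenopus rows of a library were divided by its summed spike-ins, with the mean pre-midblastula total set to 1000000. Values on this scale are ratios to the spike-ins and are not read here as amounts per embryo. The median rise was 151-fold, against 59.0-fold in TPM, or 7.24 against 5.88 on the log2 scale. The range was 30.1-fold for rank 34 to 4340-fold for rank 1, against 11.7-fold and 1607-fold. The gap between both scales ran from 2.28-fold to 2.93-fold over the members, with a median of 2.57-fold. Both scales differ by 1 factor per library. The gap thus reflects these factors and how a member's level is spread over the libraries. The Xenopus total per spike-in stood at 2.57 ± 0.486 times its pre-midblastula mean in the tailbud window (SD, n = 4), and the median gap was 1.36 log2 units for members, 1.36 for rows with a maternal mean under 1 TPM and the same tailbud bound, and 1.35 for rows with a maternal mean of 10 to under 100 TPM. The gap was smallest for rank 6 and largest for rank 9. It depends on which libraries hold a member's level, because the Xenopus total per spike-in differed within windows, from 0.844 to 1.18 before the midblastula and from 2.06 at stage 23 to 3.003 at stage 33.

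**Figure D5:**
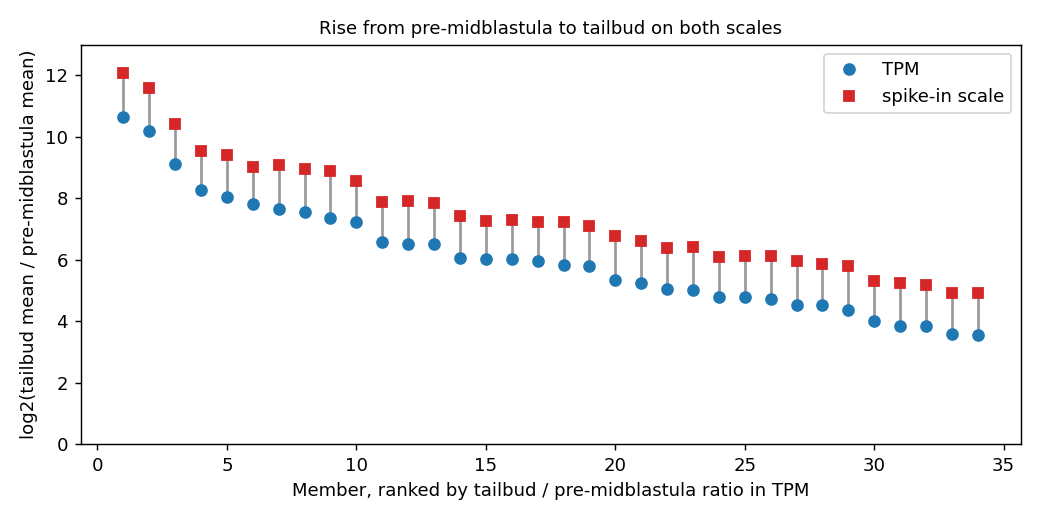
Rise from the pre-midblastula to the tailbud mean (log2 ratio, vertical axis) of each of the 34 members (by rank, horizontal axis) in TPM (blue circles) and on the spike-in scale (red squares). The grey line between them, the gap, has a median of 1.36 log2 units.

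The start of the rise was nearly the same on both scales, since the Xenopus total per spike-in stood between 0.989 and 1.14 times its pre-midblastula mean from NF 8 to NF 12. The start stage was the same for 29 members, later on the spike-in scale for 2 and earlier for 3. Rank 1 moved from NF 10 to NF 12, rank 27 from NF 12 to NF 14, rank 14 from NF 10 to NF 9, rank 18 from NF 12 to NF 10 and rank 26 from NF 16 to NF 14. In gastrula against blastula libraries 15 members were higher on the spike-in scale, against 17 in TPM, and in neurula against gastrula libraries 28, against 27 (limma, adjusted p under 0.05). Over all rows the shares called higher were 9.38% and 25.6% on the spike-in scale, against 11.2% and 19.9% in TPM.

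The late course depended more on the scale. On the spike-in scale 33 members were highest in a tailbud library, against 25 in TPM, and for 15 members the highest stage was later. The exception was rank 15, with 849 at stage 10 and 163 at stage 33 on that scale. The Xenopus total per spike-in was 2.06 times its pre-midblastula mean at stage 23 and 3.003 times at stage 33. Against TPM, this scale thus raises the later libraries of every row, and these counts were not made over other rows. NF 33 lay above NF 23 for 22 members, against 16 in TPM. The median ratio to the pre-midblastula mean was 125 at stage 23, 149 at stage 26, 141 at stage 30 and 118 at stage 33 on the spike-in scale. In TPM it was 61.3, 68.8, 45.4 and 39.2. Rank 21, for example, was lower in TPM at stage 33 (305 TPM) than at stage 26 (367 TPM), whereas on the spike-in scale it was higher, at 916 against 821.

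Set beside rows of the same tailbud level with another maternal level, the members lay between both neighbours in most measures. The compared rows had a tailbud mean of at least 100 TPM and a pre-midblastula mean either under 1 TPM (184 rows, of which 118 were listed at 0 in all 5 libraries) or of 10 to under 100 TPM (341 rows). The median tailbud mean was 189 TPM for members, 232 TPM for rows under 1 TPM and 146 TPM for rows from 10 TPM. At NF 12 the median row stood at 11.4% of its tailbud mean among members, 0.57% among rows under 1 TPM and 70.1% among rows from 10 TPM. At NF 20 these medians were 70.3%, 45.1% and 104%. From NF 14 or an earlier stage on, 11 of 34 members stayed at 50% of their tailbud mean or more, 32.4% of them. This held for 21.2% of rows under 1 TPM and 71.8% of rows from 10 TPM. On the spike-in scale it held for 4 members, or 11.8%, against 8.70% and 33.7%. The stage was NF 23 or later for 26.5% of members, 53.3% of rows under 1 TPM and 7.62% of rows from 10 TPM in TPM, and for 61.8%, 68.5% and 34.3% on the spike-in scale. In TPM 14.7% of members, 10.3% of rows under 1 TPM and 2.05% of rows from 10 TPM had no such stage, and here the members were highest. On the spike-in scale these were 2.94%, 6.52% and 0.293%. A share of the tailbud mean depends on the maternal level by itself, so these are descriptions of sets that the rule and its neighbours define, and no test was made of their difference.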

How the data were processed

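RNA abundance was measured in 18 whole-embryo libraries, 1 per stage. The submitters' processing notes name the tools CASAVA 1.8.2, Trimmomatic, Bowtie and RSEM without saying what each did, and no source used here states the reference transcripts. The deposited table had 31085 rows, 92 of them spike-ins. The deposited values were TPM in 9 columns, per their sums, and TPM-like values with a sum over 1000000 in the other 9, where the design had assumed TPM throughout. Spike-ins were left out and each library was rescaled to 1000000.

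The members and all measures were chosen with earlier results of these data known. Windows were set from the stage label. Tests used limma 3.58.1 in R 4.3.3 on log2(TPM + 1), with eBayes and an intensity trend, over rows whose mean reached 1 TPM, in 1 fit over 5 windows. The trend was fitted on NF 8 to NF 20 alone. Because of the pseudocount, fitted folds of low rows are too small. The limma code was tested on simulated data with independent noise. These held no change within a window, unlike the ordered stages here, so the calls are not checked for that. With no gene names, the rule for named rows took the 2 members with the largest ratio. It also asked for members called lower between windows, of which there were 0 (limma; 0 at an unadjusted p under 0.05 too). Alternatives covered the pseudocount, filter, scaling, libraries, column kind, weights and start measure. Marker lists were not run.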

Additional observations from a re-analysis of the deposited data

Results flagged for a closer look

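Every member, and the summed share of all members, was searched in the pre-midblastula, neurula and tailbud windows for a library that stood well away from the rest of its window. Of 105 such sets of libraries 6 had one. About 5.25 would be expected if the libraries of a window differed by chance alone. Stages in order need not do so, and no conclusion is drawn from these numbers. Rank 4 stood at 5.62 TPM at stage 2, with the other 4 pre-midblastula libraries at 0, and at 88.7 TPM at stage 18, with the next neurula library at 6.39 TPM. Rank 10 stood at 127 TPM at stage 33, below the other tailbud libraries, of which the lowest was at 197 TPM. Rank 13 stood at 3.73 TPM at stage 7, with the next pre-midblastula library at 2.05 TPM, and at 156 TPM at stage 20, with the next neurula library at 69.4 TPM. Rank 28 stood at 6.69 TPM at stage 6.5, with the next pre-midblastula library at 5.05 TPM. The windows are stages in order, and a member that changes over a window can stand out at its first or last stage, as at stage 20 and NF 33.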

How the results depend on the processing

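Members called higher in gastrula against blastula libraries numbered 17 (11.2% of all rows), and 10 with NF 8 to NF 20 fitted alone (7.83%), 5 with array weights (3.34%) and 8 to 20 when 1 library was left out (5.04% to 16.3%). In neurula against gastrula libraries the count was 27 (19.9%), and 11 with array weights (4.25%) and 21 to 27 when 1 library was left out (12.5% to 21.9%). The rising trend was called for 30 to 31 members when 1 library was left out. Members called lower were 0 in every one of these fits. Of all rows, 19.2% and 29.6% were called lower in the first and second step with NF 8 to NF 20 fitted alone. With array weights these shares were 7.92% and 9.22%. With 4 times as the start measure 4 members started by NF 10 and 10 at NF 16 or later, in place of 13 and 6, and with median ratio scaling 3 started at NF 16 or later. On the spike-in scale the rule itself found 131 members, all 34 among them, with a median log2 rise of 4.54 in TPM and 5.85 per spike-in. Leaving out 1 library gave 33 to 37 members, of which 32 to 34 were among the 34, and a median log2 rise of 5.60 to 6.06 in TPM and 7.03 to 7.35 per spike-in. The rule on the spike-in scale admits rows with a lower TPM by construction. For the other changes the cause was not tested. No paired analysis was possible because no stage has separate samples and replicate numbers only count stages within a window. The unknown depth limits the low levels most, where a value listed at 0 may be a failed estimate.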

Other observations

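In 4 members the maternal level was followed by a low before the rise, in that the lowest library from NF 8 to NF 12 lay under 50% of the pre-midblastula mean and under every pre-midblastula library. These were ranks 7, 12, 27 and 34. Ranks 3, 4, 15 and 18 could not meet this measure, since each had a pre-midblastula library listed at 0. Other rows were not counted for it, so such a low is not shown to be particular to the members. Rank 12 was lowest at stage 10, at 1.24 TPM, and rank 27 at stage 10 too, at 1.51 TPM against 4.60 ± 1.38 TPM before the midblastula (SD, n = 5). Rank 34 was lowest at stage 8.5, at 3.52 TPM, between 7.49 TPM at stage 8 and 10.3 TPM at stage 9, and stood at 131 TPM at stage 12. Rank 7 was lowest at stage 8, at 0.511 TPM. Each is 1 library, and members were looked at for this after their values were seen.

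Rank 6 was uneven late in the course. It stood at 206 TPM at stage 16, 573 TPM at stage 18, 178 TPM at stage 20 and 511 TPM at stage 23, and then at 359, 159 and 117 TPM at stage 26, 30 and 33.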
